A study of Mus musculus with 28 samples.

Results

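The genes described here encode the nuclear part of the mitochondrial respiratory chain and the ATP synthase. They were chosen by symbol alone: protein-coding genes whose symbol begins with Nduf, Uqcr, Cox4 to Cox8 or Atp5, together with Sdha, Sdhb, Sdhc and Sdhd. This rule found 95 of the 25301 genes in the deposited table. It uses no measured value, and it also takes in 8 assembly factors (the Ndufaf genes), which help to build complex I without staying in it.

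RNA was sequenced from pancreatic macrophages that flow cytometry had sorted out of wild-type mice of the C57BL/6J strain. The study followed recovery from acute pancreatitis (AP) brought on by caerulein, a secretagogue that makes acinar cells release and activate their enzymes. The question in the study's title is whether lactate helps the pancreas to repair by turning macrophages towards a reparative state. The 28 libraries formed 6 groups: NC with 3 libraries and D0 with 5, then 6 each for buffer (D1 AP+PBS) and lactate (D1 AP+Lac) at the first time, and 4 each for buffer (D3 AP+PBS) and lactate (D3 AP+Lac) at the second. D0, D1 and D3 are days 0, 1 and 3 of recovery. All groups shared strain, genotype, tissue and cell type. The labels do not explain NC or state doses, ages or the number of mice behind a library, so p-values measure only the spread between these libraries.

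The respiratory chain passes electrons from NADH (complex I) or succinate (complex II) through ubiquinone to complex III, then by cytochrome c to complex IV, which reduces oxygen. Complexes I, III and IV pump protons as they do so, and the ATP synthase uses the return of the protons to make ATP. Complexes I, III, IV and the ATP synthase are built from subunits of both genomes, nuclear and mitochondrial, while all subunits of complex II are nuclear. In macrophages, inflammatory activation is known to lower the use of the chain for ATP, and alternative activation to rely on it.

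Values are FPKM (fragments per length of gene model and per number of mapped fragments), so gene length is allowed for. Differences in mapping between genes were not tested, so levels of different genes compare only roughly. Differences were fitted with limma on log2(FPKM + 1) over all 11960 genes that reached 1 FPKM in at least 3 libraries. A gene is called higher or lower at a Benjamini-Hochberg adjusted p under 0.05. Of the 95 genes, 92 passed that filter. The other 3 were Cox4i2, Ndufa4l2 and Ndufb4c, whose mean levels lay under 1 FPKM in every group, and 2 of the 3 had libraries at 0.

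The libraries held 33273303 to 41060490 fragments, as recovered from the FPKM steps. Macrophage markers were present in every library, with none at 0 in a whole group, but their level moved. The summed FPKM of 12 markers ran from 15560 to 17129 in NC, 11868 to 13154 in D0 and 12802 to 20985 in D1 AP+PBS. It ran from 7654 to 11848 in D3 AP+PBS, 7613 to 16072 in D1 AP+Lac and 8482 to 13969 in D3 AP+Lac. The sum weighs abundant markers most. The mean log2(FPKM + 1) of the same markers did not fall at D0, at 8.59 to 8.78 in NC and 8.76 to 9.02 in D0. Other cell types were present too, and their RNA moved with the groups. The summed level of 18 acinar markers was 7047 to 11209.9 FPKM in NC, 447 to 859 in D0, 1013 to 5539 in D1 AP+PBS and 3077 to 23589.98 in D3 AP+PBS, with no marker at 0 in a whole group. Bulk RNA cannot tell fewer cells of a type from less RNA per cell. D0 replicate 3 stood apart within its group, with a mean log2(FPKM + 1) of the 92 genes of 5.54 against 5.79 to 5.92 in the other D0 libraries. Its left-out counts are given beside the D0 comparison.

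Macrophage-sorted pancreatic RNA held abundant respiratory chain message. Over all 28 libraries 78 of the 95 genes averaged at least 10 FPKM and 26 at least 100 FPKM. The most abundant was Atp5b (332 FPKM), the catalytic beta subunit of the ATP synthase, followed by Cox4i1 (301 FPKM), the ubiquitous form of complex IV subunit 4. The median level was 185 FPKM for the 5 subunits of the F1 head, 176 for the 11 ubiquitous complex IV genes, 90.4 for the 8 complex III genes, 80.2 for the 4 complex II genes and 41.6 for the 7 nuclear core subunits of complex I. The assembly factors were far lower, with a median of 6.42 FPKM. These are short genes: the median gene model of the 95 was 792 bases, against 3389 bases for all tested genes.

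Tissue-specific forms were scarce beside their ubiquitous partners. Cox4i2, the oxygen-responsive form of subunit 4, made up between 0.0203% (D0) and 0.152% (D3 AP+Lac) of the summed Cox4i1 and Cox4i2 FPKM as group means, with 0 to 25 fragments in a library. Cox6a2, the heart and muscle form, made up 0.524% to 1.12% of its pair, and Cox6b2, the testis form, 0.424% to 1.99%. Cox7a1, the muscle form of subunit 7a, rested on 7 to 159 fragments per library. Genes Cox8b and Cox8c, the other forms of subunit 8, were not analysed here. Ndufb4, Ndufb4b and Ndufb4c, Ndufs6 and Ndufs6b, and Ndufab1 and Ndufab1-ps are near-identical copies, so how fragments were shared among them is uncertain.

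Promoter sequence was taken from RefSeq (GRCm38.p6) for 76 of the 95 genes, as 300-base windows from 250 bases before to 50 bases after the start. The first 3 stretches below are the 100 bases before the start of 3 genes described further on, chosen after the values were seen to show different courses: Atp5g2, which was alone among the c-subunit genes in rising only after D0, Cox7a2l, which fell furthest at D0, and Cox5b, which rose with most of the list. Capitals mark a match to the NRF1 motif, in which the sixth base may be any.
Atp5g2 (chr15:102671048-102671147, minus strand): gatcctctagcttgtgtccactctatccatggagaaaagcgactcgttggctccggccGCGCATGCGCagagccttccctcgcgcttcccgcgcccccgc
Cox7a2l (chr17:83514334-83514433, minus strand): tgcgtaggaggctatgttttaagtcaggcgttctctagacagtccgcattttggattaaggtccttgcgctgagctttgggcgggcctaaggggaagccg
Cox5b (chr1:36691387-36691486, plus strand): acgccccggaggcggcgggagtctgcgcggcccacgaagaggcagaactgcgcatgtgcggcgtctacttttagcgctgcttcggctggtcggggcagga

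NRF1, the GABP factor of the ETS family and YY1 are known regulators of nuclear respiratory genes. Searched on both strands, the NRF1 motif lay in 19 of 76 windows (25.0%), against 11.5% of the windows of tested genes. It lay in 9 of the 48 windowed genes called higher at D0 and in 10 of the 25 not called, against 12.2% and 12.4% of all tested genes in those classes. The ETS motif CCGGAAG also lay in 19 of 76 (25.0%, against 20.6%). It lay in 15 of the 48 called higher and in 4 of the 25 not called, against 24.9% and 23.7% of all tested genes. The YY1 motif AAGATGGC lay in 11 of 76 (14.5%, against 5.48%). No match of one motif overlapped a match of another. All 11 genes with the YY1 motif were among the 48 windowed genes called higher at D0, and none was among the 25 not called. The same motif lay in 7.22% of all tested genes called higher at D0, in 4.44% of those called lower and in 5.68% of those not called. The 4 examples here are 30-base stretches with the YY1 match in capitals, and they were chosen after the values were seen, to show its usual place just after the start and the 2 genes (Atp5j and Atp5pb) in which it begins upstream.
Ndufs4 (chr13:114388045-114388074, minus strand): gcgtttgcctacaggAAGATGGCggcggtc
Ndufc1 (chr3:51408915-51408944, minus strand): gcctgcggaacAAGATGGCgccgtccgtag
Atp5pb (chr3:105959248-105959277, minus strand): atgtgcgagcgGCCATCTTgctcctgcccc
Atp5j (chr16:84835046-84835075, minus strand): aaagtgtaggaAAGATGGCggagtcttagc

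A match is a description of the letters and not of binding. The match in Atp5pb is the motif read on the other strand. Of the factors themselves, Yy1 message was lower at D0 than in NC by a log2 difference of -0.31 (SE 0.083, adjusted p = 0.0028 in limma). Nrf1 (-0.13, SE 0.12, adjusted p = 0.39) and Gabpa (-0.20, SE 0.099, adjusted p = 0.079) were not called. The median over all tested genes was -0.22 in this comparison, and 41.4% of them were called lower.

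At D0 the nuclear respiratory genes were higher than in NC, while in the whole table more genes were lower than higher. Of the 92 tested, 57 were called higher and 3 lower, where 19.7% of all tested genes were called higher and 41.4% lower (61.1% in all). The median log2 difference of the 92 genes was 0.52, against -0.22 over all genes, and 82 of 92 were fitted above 0. The groups did not overlap for 58 of the 92 (63.0%), near the 68.3% of all tested genes, so the count by itself is not particular to the list. By direction, 55 of the 58 lay higher in D0 and 3 lower, against 21.7% and 46.6% of all tested genes. Quantile normalization gave 45 higher and 7 lower among the 92 and kept 38 of the 57 higher calls. With it more genes of the whole table were higher (3558) than lower (2755), and the medians were 0.33 for the list and 0.06 over all genes. Median-ratio scaling gave 81 higher and 3 lower, and over all tested genes 3597 higher and 3858 lower. Left out in turn, NC replicates 1 and 3 gave 48 and 50 higher and D0 replicate 3 gave 67, each with 3 lower.

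**Figure D1:**
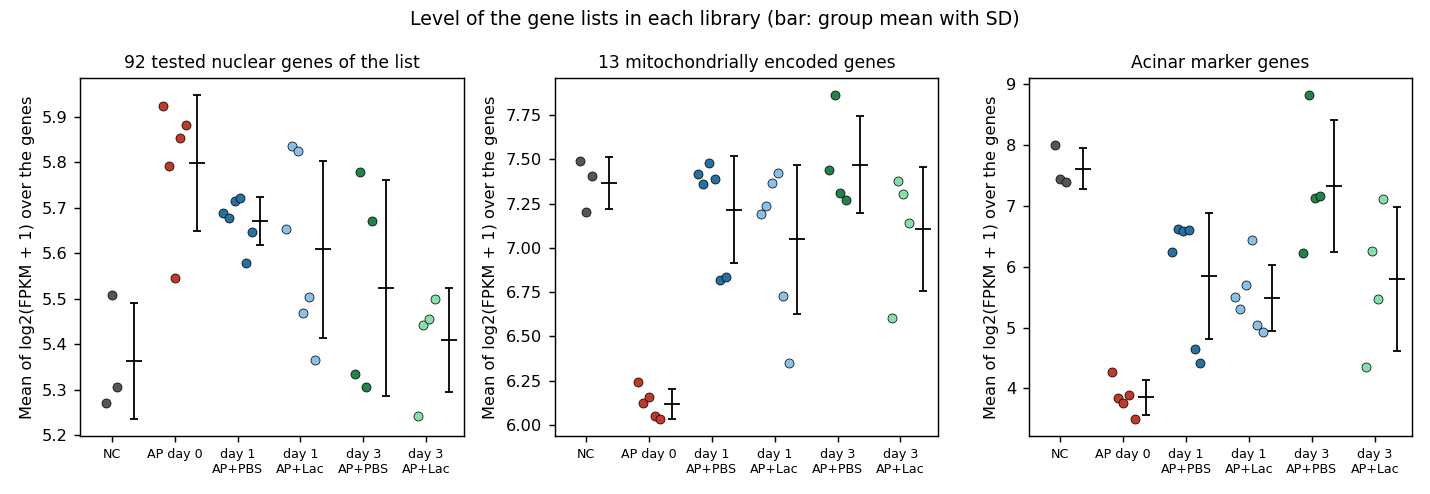
Mean log2(FPKM + 1) in each library for the 92 tested nuclear genes (left), the 13 mitochondrially encoded genes (middle) and 18 acinar marker genes (right), by group; points are libraries and bars the group mean with SD. On the left 4 of the 5 D0 libraries (5.79 to 5.92) lie above every NC, D1 AP+PBS and D3 AP+PBS library, and the D0 libraries lie lowest of all in the middle and on the right.

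The rise ran through all 5 complexes. Of the 7 nuclear core subunits of complex I, which carry the flavin and the iron-sulphur clusters, 4 were higher, among them Ndufs8 (0.57) and Ndufs3 (0.54). Ndufs1, with a log2 difference of 0.09, was not called. Among accessory subunits, 14 of 19 Ndufa, Ndufc, Ndufs and Ndufv genes and 7 of 12 tested Ndufb genes were higher, and none was lower. The Ndufb gene with the highest difference was Ndufb6, a subunit of the membrane arm, at 27.96, 43.2 and 31.1 FPKM in NC and 74.7, 71.5, 47.1, 68.7 and 76.3 FPKM in D0. All D0 values lay above all NC values, and the log2 difference was 0.97 (SE 0.20, adjusted p = 0.000196 in limma).

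In complex IV 10 of the 11 ubiquitous genes were higher, and the remaining one, Cox7c, had a log2 difference of 0.40. Cox5b, a zinc-binding subunit, measured 105, 148 and 119.8 FPKM in NC and 264, 239.5, 198, 263 and 265 FPKM in D0. The groups did not overlap (log2 difference 0.98, SE 0.15, adjusted p = 7.02e-06 in limma). Cox4i1 rose less, by 0.34 (SE 0.13, adjusted p = 0.0316 in limma), and its highest NC library (287.5 FPKM) lay above its lowest D0 library, replicate 3 (267 FPKM).

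In complex III 4 of 8 genes were higher, Uqcrq (0.97), Uqcr11 (0.71), Uqcrc1 (0.54) and Uqcrb (0.49). Uqcrfs1, the gene of the Rieske iron-sulphur protein, which takes an electron from ubiquinol, averaged 48.0 ± 6.51 FPKM (SD, n = 3) in NC and 48.0 ± 2.28 FPKM (SD, n = 5) in D0. Cyc1, the cytochrome c1 subunit that the symbol rule leaves out, was higher by 0.59 (adjusted p = 0.0017 in limma). Cycs, cytochrome c itself, was higher by 1.46 (adjusted p = 5.3e-06 in limma), more than any of the 92 genes.

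Complex II was split. Sdhb, its iron-sulphur subunit, measured 63.7, 74.2 and 66.3 FPKM in NC and 123, 103, 91.8, 109 and 118 FPKM in D0, and was higher by 0.67 (SE 0.096, adjusted p = 2.49e-06 in limma). Sdhc, a membrane anchor, was higher by 0.57 (adjusted p = 0.000127 in limma), and Sdhd, the other anchor, had 0.20, which was not called. Sdha, the flavoprotein that binds succinate, stood at 84.6, 90.3 and 87.3 FPKM in NC and at 85.9, 87.2, 84.1, 88.2 and 88.5 FPKM in D0. Its 2 groups overlapped closely, and the 95% interval of the log2 difference ran from -0.17 to 0.15. With median-ratio scaling this difference was 0.21 (adjusted p = 0.011 in limma), and the median over all genes moved from -0.22 to -0.04.

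In the ATP synthase 12 of 17 genes were higher and none lower. The stalk and membrane parts held 8 of the 12, among them Atp5k (0.73), Atp5pb (0.72) and Atp5md (0.71). Of the 5 F1 genes 2 were called, Atp5e (0.51) and Atp5b (0.40), while Atp5a1, the alpha subunit, had 0.28. The remaining 2 were genes of the c subunit, described below with the third.

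The gene with the highest fitted difference was Ndufaf3, which acts with Ndufaf4 in the assembly of complex I. It measured 6.32, 7.56 and 5.94 FPKM in NC and 16.7, 13.9, 13.4, 17.3 and 18.1 FPKM in D0 (log2 difference 1.15, SE 0.12, adjusted p = 2.95e-08 in limma). Every D0 library lay above every NC library. The other assembly factors did not follow it as a group: Ndufaf8 was higher (0.73), Ndufaf7 was lower (-0.86), and the other 5 were not called. Ndufaf7, a methyltransferase, fell from 7.43 ± 0.333 FPKM (SD, n = 3) to 3.67 ± 0.327 FPKM (SD, n = 5) and did not overlap (SE 0.10, adjusted p = 1.05e-07 in limma).

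Cox7a2l went furthest against the list. Its protein is related to subunit 7a. Whether it joins complexes III and IV in this strain was not measured. It measured 157, 166 and 161 FPKM in NC and 66.8, 60.2, 45.4, 60.2 and 58.9 FPKM in D0. No D0 value came near the NC values, and the log2 difference was -1.46 (SE 0.12, adjusted p = 3.18e-10 in limma). Its paralogues moved the other way: Cox7a2, the ubiquitous subunit 7a, was higher by 0.85 and Cox7a1 by 1.12 (SE 0.24, adjusted p = 0.000319 in limma). The third gene called lower was Cox6b2, from 5.86, 4.90 and 3.52 FPKM in NC to 1.91, 2.17, 1.09, 0.812 and 1.25 FPKM in D0 (-1.25, SE 0.27, adjusted p = 0.000322 in limma), on 20 to 53 fragments in the D0 libraries.

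**Figure D2:**
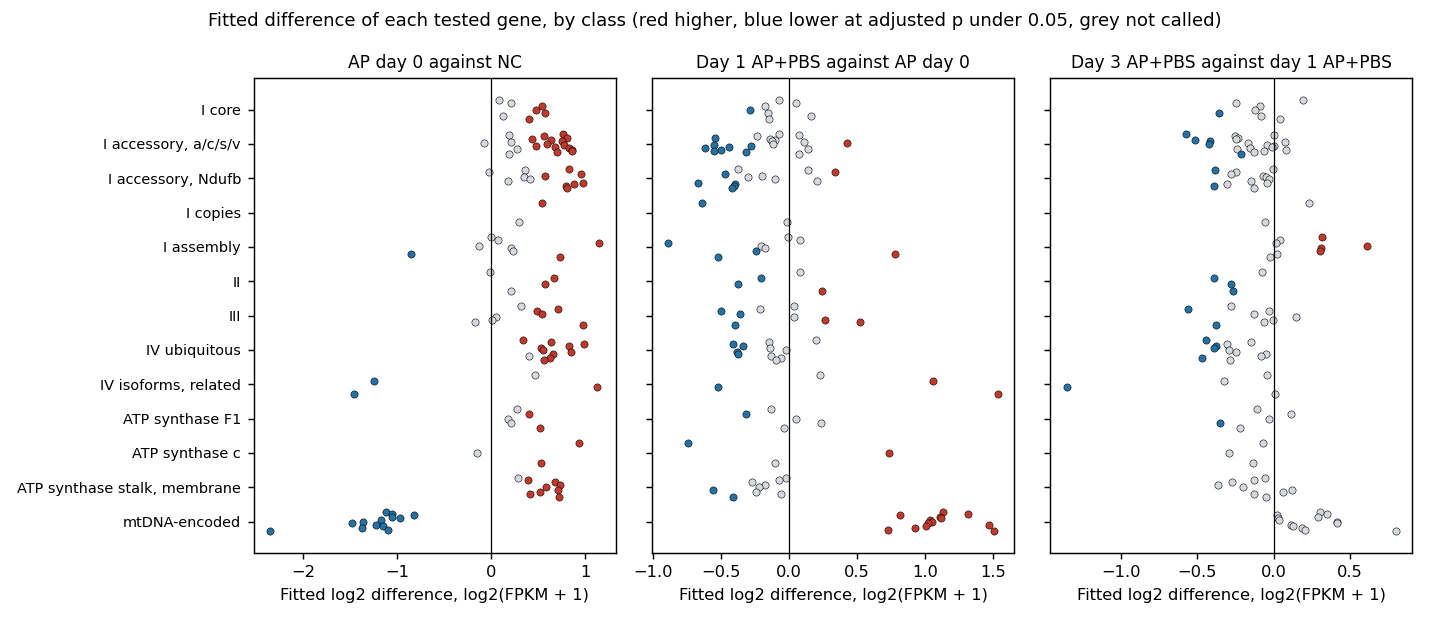
Fitted log2 difference of each tested gene by class in 3 comparisons (D0 against NC, D1 AP+PBS against D0, D3 AP+PBS against D1 AP+PBS); each point is a gene, red called higher, blue called lower and grey not called. At D0, 57 of 92 nuclear genes are red and all 13 mtDNA-encoded genes blue, and the next panel shows 13 red mtDNA-encoded genes beside 32 blue nuclear ones.

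The mitochondrially encoded subunits went the opposite way. The table lists these 13 genes as ND1 to ND6, ND4L, CYTB, COX1 to COX3, ATP6 and ATP8, and they lie outside the symbol rule. All 13 were called lower at D0, with a median log2 difference of -1.15 and a range from -2.35 (ND6) to -0.82 (COX1). COX1, the catalytic core of complex IV, measured 3663, 3211 and 3550 FPKM in NC and 2095, 1902, 2184, 1852 and 1827 FPKM in D0. ND6, the one subunit encoded on the other strand, measured 57.7, 55.5 and 54.9 FPKM in NC and 13.4, 8.46, 9.31, 10.6 and 9.77 FPKM in D0. No D0 library reached any NC library in any of the 13. The summed FPKM of the 95 nuclear genes per summed FPKM of the 13 rose from 0.715 ± 0.147 (SD, n = 3) in NC to 2.08 ± 0.277 (SD, n = 5) in D0. The 13 genes were of very unequal level, so their sum rests mainly on the most abundant, such as COX1. In D3 AP+PBS replicate 2, for example, ND1 measured 2253 FPKM and COX3 81.9 FPKM. The reason for this spread was not tested.

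Acinar, lymphocyte and cell cycle RNA moved with these 13 genes. Of 18 acinar markers 17 were called lower (median -4.20), of 11 B and plasma cell markers 11, of 14 T and NK cell markers 13, and of 24 cell cycle genes 23. Neutrophil markers differed in direction, 6 higher and 1 lower of 11 tested (median 1.36). Macrophage markers were split, 3 higher and 3 lower of 12 (median -0.005). With the acinar level of each library as a covariate, 0 of the 13 were called at D0 (median -0.17), with the lymphocyte level 6 and with the cell cycle level 4. These levels differ between the groups themselves, so their part cannot be told apart from that of the group. With the same covariates 60, 61 and 67 of the 92 nuclear genes were called higher. The whole table then gave 1321 higher and 1923 lower with the acinar level. It gave 2835 and 2397 with the lymphocyte level, and 2709 and 2741 with the cell cycle level.

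Genes for the upkeep and expression of mitochondrial DNA were mixed at D0, 2 higher and 6 lower of 20 tested. The 2 with the smallest p were Ppargc1b, a coactivator of mitochondrial biogenesis (-0.78, adjusted p = 1.4e-06 in limma), and Polg2, the accessory subunit of the mitochondrial DNA polymerase (-1.20, adjusted p = 1.2e-05). Tfam, which packages mitochondrial DNA and starts its transcription, was also lower (-0.57, adjusted p = 0.0034). Ppargc1a did not pass the filter on low values. Assembly factors outside the symbol rule gave 15 higher and 6 lower of 40 tested, led by Coa3 (0.59) and Cox19 (0.77), and the citrate cycle 4 higher and 3 lower of 13, led by Suclg2 (-0.80) and Sucla2 (0.31). Other multi-subunit machines gave 51 higher and 0 lower of 78 for the mitochondrial ribosome, 32 and 0 of 33 for the constitutive proteasome, and 2 and 34 of 82 for the cytosolic ribosome.

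From D0 to D1 AP+PBS the list turned back in part. Of the 92 genes 32 were called lower and 9 higher, where 19.8% of all tested genes were called lower and 43.0% higher (62.9% in all). The median log2 difference was -0.15, against 0.19 over all genes. The split depended on the scaling: quantile normalization gave 27 lower and 14 higher, and median-ratio scaling 56 lower and 5 higher. In the whole table quantile normalization gave 3666 lower and 2835 higher, and median-ratio scaling 3808 lower and 3918 higher. With quantile normalization the share called lower in the list was close to that of the whole table. Both D0 comparisons share the D0 libraries, so a low or high D0 value moves both, and the values are given side by side.

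Of the 57 genes higher at D0, 31 were called lower at D1 AP+PBS and 26 were not called. The 3 genes lower at D0 were all called higher at D1 AP+PBS. Cox7a2l measured 151 to 198 FPKM in the 6 D1 AP+PBS libraries (median 169), above all D0 values and across the NC values (1.54, SE 0.10, adjusted p = 1.12e-11 in limma). Ndufaf7 (0.78) and Cox6b2 (1.06) likewise overlapped no D0 library. Ndufaf3 fell by 0.89 on the log2 scale, to between 6.60 and 9.73 FPKM with a median of 8.45 (adjusted p = 1.05e-07 in limma).

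Complex I held 14 of the 32 genes called lower among its 38 tested subunits, and complex IV held 4 among its ubiquitous genes. Examples are Ndufb6 (-0.67), Ndufc1 (-0.62), Ndufs5 (-0.56), Cox5b (-0.41) and Uqcrb (-0.50). The lowest values beside Ndufaf3 belonged to Atp5g1 (-0.75), Ndufb6 and Ndufab1-ps (-0.64), a copy of the acyl carrier protein gene that rested on 8 to 69 fragments per library.

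A further 6 genes were not called at D0 and were higher at D1 AP+PBS: Atp5g2, Uqcrh, Ndufa6, Ndufb11, Uqcrfs1 and Sdhd. Uqcrh, the hinge subunit of complex III, measured 169.6, 167.5, 130.2, 183 and 174 FPKM in D0 and 221 to 256 FPKM (median 236) in D1 AP+PBS, without overlap (0.52, SE 0.12, adjusted p = 0.000462 in limma). Uqcrfs1 rose by 0.27 (SE 0.096, adjusted p = 0.0176), Sdhd by 0.25 (SE 0.089, adjusted p = 0.0194) and Ndufa6 by 0.43 (SE 0.11, adjusted p = 0.00201), all without overlap between the groups. Of the 9 genes called higher, 4 kept that call with the acinar level as a covariate, 3 with the lymphocyte level and 2 with the cell cycle level. Higher calls in the whole table also became fewer, 5147 without a covariate and 3201, 1927 and 2018 with these 3.

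The 3 c-subunit genes show the 2 patterns within one part of the enzyme. Atp5g1, Atp5g2 and Atp5g3 encode the same mature peptide, which forms the rotor ring of the ATP synthase, behind different import sequences. Atp5g1 measured 34.1, 49.7 and 33.5 FPKM in NC, 82.8, 75.5, 58.5, 78.7 and 79.0 FPKM in D0, and 34.9 to 52.5 FPKM (median 44.5) in D1 AP+PBS. Its D0 values overlapped neither of these groups, while D1 AP+Lac reached 64.7 FPKM, above D0 replicate 3 (0.93, SE 0.20, adjusted p = 0.000312 at D0, and -0.75, SE 0.17, adjusted p = 0.000435 afterwards, both in limma).

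Atp5g2 took another course. It measured 119, 142 and 124 FPKM in NC and 120.1, 119.6, 98.8, 116 and 122 FPKM in D0, groups that overlapped (-0.15, SE 0.13, adjusted p = 0.331 in limma). With quantile normalization it was called lower (-0.42, adjusted p = 0.0135 in limma). In D1 AP+PBS it measured 149 to 211 FPKM (median 200.04), above every D0 library (0.73, SE 0.11, adjusted p = 4.07e-06 in limma). Atp5g3 rose at D0, from 72.8, 87.6 and 71.9 to 114, 114, 93.4, 119.6 and 118 FPKM (0.52, SE 0.18, adjusted p = 0.0127 in limma), and had -0.10 afterwards, which was not called.

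The make-up of the c-subunit message moved with these values. Atp5g1 held 15.8% ± 1.72 (SD, n = 3) of the summed FPKM of the 3 genes in NC, 24.7% ± 0.992 (SD, n = 5) in D0 and 12.97% ± 1.39 (SD, n = 6) in D1 AP+PBS. Atp5g2 held 52.5% ± 1.59, 38.3% ± 0.944 and 56.5% ± 3.02 in the same groups. The shares of D0 did not overlap those of the other 5 groups for either gene. As shares within a library they do not depend on the scaling between libraries. The sum of the 3 genes was 245 ± 29.8 FPKM (SD, n = 3) in NC, 302 ± 29.01 (SD, n = 5) in D0 and 342 ± 33.1 (SD, n = 6) in D1 AP+PBS.

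**Figure D3:**
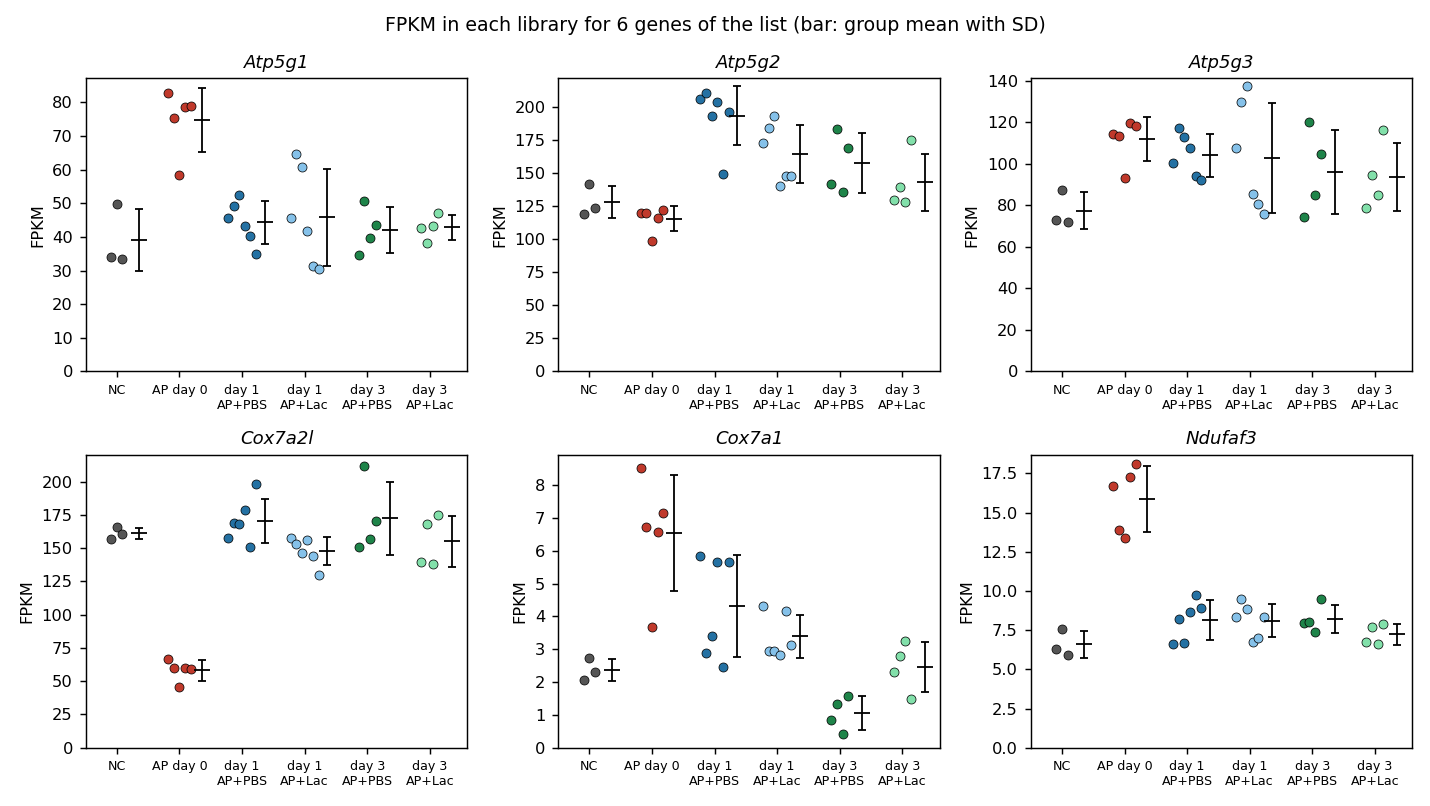
FPKM of Atp5g1, Atp5g2, Atp5g3, Cox7a2l, Cox7a1 and Ndufaf3 in each library by group, on axes that start at 0; points are libraries and bars the group mean with SD. Ndufaf3 is high in D0 alone, Atp5g1 is high in D0 and overlaps it only in D1 AP+Lac (up to 64.7 FPKM), Cox7a2l is low there (45.4 to 66.8 FPKM), and Atp5g2 is high first in D1 AP+PBS (149 to 211 FPKM).

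The mitochondrially encoded genes rose again at D1 AP+PBS, 13 of 13 called higher (median 1.05, from 0.73 to 1.51). COX1 measured 2668 to 3901 FPKM (median 3701), across the NC values. All 24 cell cycle genes were called higher at this step (median 2.77), as were 16 of 18 acinar, 11 of 11 B and plasma cell, 14 of 14 T and NK cell and 10 of 12 dendritic cell markers. Of 12 macrophage markers 5 were higher and 3 lower. With covariates, 9 of the 13 were called with the acinar level, 4 with the lymphocyte level and 0 with the cell cycle level. D1 AP+PBS replicates 5 and 6 were lowest in both lists, with acinar levels of 4.65 and 4.41 against 6.24 to 6.62 in the other 4 and mitochondrially encoded levels of 6.82 and 6.83 against 7.36 to 7.48 (mean log2). Without them and the 2 D1 AP+Lac libraries that share this trait, a choice made after seeing the data, 13 of 13 were still called higher and the median was 1.24.

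Among other genes at this step, Cycs fell by 1.18 on the log2 scale (adjusted p = 7e-06 in limma) and Cyc1 by 0.37 (adjusted p = 0.013). The biogenesis list gave 6 higher and 4 lower of 20, with Polg2 at 1.27 and Ppargc1b at 0.59. Assembly factors outside the rule gave 10 higher and 9 lower of 40, led by Oxa1l (0.78) and Higd2a (0.75), and the citrate cycle 4 and 4 of 13, led by Idh3g (0.73) and Fh1 (0.73). The proteasome gave 31 lower of 33 and the cytosolic ribosome 79 higher of 82.

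Between D1 AP+PBS and D3 AP+PBS more genes of the list were again lower than higher. Of the 92 genes 19 were called lower and 4 higher, where 12.8% of all tested genes were called lower and 21.5% higher. The median log2 difference was -0.13 against 0.10. All 4 genes called higher were complex I assembly factors, Ndufaf4 (0.62), Ndufaf1 (0.32), Ndufaf5 (0.31) and Ndufaf6 (0.30). Ndufaf4 measured 2.03 to 2.96 FPKM (median 2.46) at day 1 and 4.20, 5.26, 3.64 and 4.25 FPKM at day 3, without overlap (SE 0.15, adjusted p = 0.00353 in limma). Quantile normalization and median-ratio scaling each kept 1 of these 4 and gave 17 and 32 genes lower. Over all tested genes quantile normalization gave 1771 higher and 2185 lower, and median-ratio scaling 1862 higher and 2020 lower. Under both, the whole table too had more genes lower than higher. With quantile normalization the share called lower in the list was close to that of the whole table.

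The genes called lower at day 3 were 8 complex I subunits, 3 of complex II (Sdhb, Sdhc and Sdhd), 2 of complex III, 4 ubiquitous complex IV genes, Cox7a1 and Atp5d. Sdhb went from 87.7 to 97.7 FPKM (median 95.1) to 63.9, 77.2, 66.3 and 79.1 FPKM, without overlap (-0.39, SE 0.085, adjusted p = 0.00152 in limma). Cox4i1 fell by 0.45 (SE 0.12, adjusted p = 0.0059 in limma), Ndufa1 by 0.57 (SE 0.17, adjusted p = 0.0118), Uqcr11 by 0.56 (SE 0.19, adjusted p = 0.0294) and Ndufa2 by 0.52 (SE 0.16, adjusted p = 0.0134). Those 4 overlapped between the groups, and D3 AP+PBS replicate 2 lay within the day 1 range in each. The lowest fitted value of the 92 was that of Cox7a1, which measured 2.47 to 5.85 FPKM (median 4.52) at day 1 and 0.849, 1.35, 0.423 and 1.57 FPKM at day 3, without overlap (-1.36, SE 0.21, adjusted p = 8.76e-05 in limma).

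Markers of several cell types moved at the same step. Of 12 macrophage markers 10 were called lower and 0 higher (median -1.03), while 13 of 14 T and NK cell markers (median 1.21), 11 of 12 dendritic cell markers (1.13) and 10 of 18 acinar markers (1.39) were called higher and none lower. With the acinar level as a covariate 28 of the 92 genes were called lower and 1 higher, and with the lymphocyte level 26 and 0. Over all tested genes the acinar level gave 1442 lower and 1746 higher, and the lymphocyte level 1199 lower and 1082 higher. With the lymphocyte level, lower calls thus outnumbered higher calls among all tested genes too. The part of the macrophage markers' fall in the result was not tested.

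The day 3 libraries were uneven: their mean log2 level of the 92 genes was 5.33, 5.78, 5.31 and 5.67. The number of lower calls moved with single libraries. Without D3 AP+PBS replicate 1, 5 genes were called lower, and without replicate 3, 6, while leaving out D1 AP+PBS replicates 1 and 4 in turn gave 9 and 8. Cycs rose again at this step (0.53, adjusted p = 0.038 in limma), Tfam rose (0.65, adjusted p = 0.0015), and 8 of 20 biogenesis genes were called higher with 0 lower, led by Mterf3 (0.58) and Mterf1a (0.49).

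At D3 AP+PBS few genes were called against NC, although most were fitted above it. Of the 92, 3 were higher and 1 lower, where 10.3% of all tested genes were called higher and 10.9% lower (21.2% in all). The median log2 difference was 0.19, against 0.09 over all genes, with 82 of 92 fitted above 0 and 12 at an unadjusted p under 0.05 in limma. Macrophage markers were lower here too, 9 of 12 called (median -0.94), and 12 of 14 T and NK cell markers were higher (median 1.62). Ndufs4, an accessory subunit needed for a stable NADH-binding module, measured 19.7, 22.2 and 20.4 FPKM in NC and 25.2, 32.5, 24.7 and 32.6 FPKM at day 3, without overlap (0.44, SE 0.12, adjusted p = 0.0141 in limma). Cox7a1 was lower (-0.75, SE 0.25, adjusted p = 0.0347), also without overlap. Cox6a2 (0.66, adjusted p = 0.0363) rested on 3 to 50 fragments per library in these groups, and Ndufaf5 (0.35, adjusted p = 0.0433) overlapped. The calls depended on single libraries and settings, from 0 to 5 genes when 1 library was left out. Of the other genes, Cycs (0.81, adjusted p = 0.015 in limma), Tfam (0.61, adjusted p = 0.011) and Tfb2m (0.36, adjusted p = 0.039) were higher, and none of the 13 mitochondrially encoded genes was called (median 0.03, 0 at an unadjusted p under 0.05).

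No gene of the list was called between lactate and PBS at either day. At day 1, 0 of the 92 were called, where 5.16% of all tested genes were called higher and 4.56% lower (9.72% in all), with 7 at an unadjusted p under 0.05 in limma and 0 called by limma-voom. The share over all tested genes rested on a spread estimated over all 6 groups. Fitted in the compared groups alone, the whole table gave 0 higher and 0 lower. With all groups fitted, leaving out D1 AP+PBS replicate 1 gave 124 higher and 67 lower in the whole table. Leaving out D1 AP+PBS replicate 5 gave 1226 and 1154. The median log2 difference of the list was -0.06, with a range from -0.44 (Cox6a2) to 0.47 (Ndufab1-ps). The mean log2 level of the list was 5.67 ± 0.053 (SD, n = 6) with PBS and 5.61 ± 0.195 (SD, n = 6) with lactate, and the lactate libraries were the more spread out. Cell type markers also differed: 4 of 12 macrophage markers were called lower with lactate and 0 higher (median -0.57). Of T and NK cell markers 5 of 14 were called higher, of dendritic cell markers 6 of 12, and 0 lower in either list. The part of these shifts was not tested. The 4 day 1 libraries of low acinar and mitochondrially encoded RNA were also left out, a choice made after seeing the data. Then 6 of the 92 genes were called: Ndufaf1, Ndufaf4, Ndufaf5, Ndufs1 and Uqcrc2 higher and Cox6a2 lower. Over all tested genes the same setting called 1959 higher and 1467 lower, a larger share than in the list.

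In the list of electron carriers 2 genes were called at day 1. Cycs was higher with lactate by 0.62 (SE 0.18, adjusted p = 0.027 in limma), and Gpd2, which feeds electrons from glycerol 3-phosphate to ubiquinone, by 0.50 (adjusted p = 0.012). Of the further lists, the copper chaperone Sco1 of complex IV was higher (0.56, adjusted p = 0.044) and Idh3g of the citrate cycle lower (-0.31, adjusted p = 0.040). Cycs, Gpd2, Sco1 and Idh3g all lost their calls in the compared groups alone, where no gene of the whole table was called.

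At day 3, 0 of the 92 were called, where 0.192% of all tested genes were called higher and 0.184% lower (0.376% in all), with 11 at an unadjusted p under 0.05 in limma and 0 called by limma-voom. The median log2 difference was -0.13, and 73 of 92 genes were fitted below 0. The acinar level also differed, at 6.22 to 8.83 with PBS and 4.34 to 7.12 with lactate (mean log2). With it as a covariate the median was 0.01, and without D3 AP+PBS replicate 2, the library with the highest acinar level, it was -0.02. Ndufa6 had the smallest p, at 99.9, 116, 77.8 and 110.3 FPKM with PBS and 53.3, 77.6, 75.3 and 73.8 FPKM with lactate. These values did not overlap (-0.52, SE 0.13, adjusted p = 0.0677 in limma), and the gene passed the threshold with quantile normalization, with the lymphocyte covariate and with the replicate number as a block. The 95% intervals of the core enzyme genes leave room for changes in both directions, for example -0.05 to 0.26 for Sdha and -0.25 to 0.19 for Uqcrfs1.

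Shorter genes had the lower values at day 3. Across the 92 genes the Spearman correlation between gene model length and log2 difference was 0.50 (n = 92), against 0.21 over all 11960 genes. Of the 46 genes at or under the median length, 44 were fitted below 0 (median -0.18), and of the 46 longer genes 29 (median -0.03). The same correlation was 0.37 for lactate at day 1 and -0.34 at D0 against NC (0.12 and -0.15 over all genes). All points of a comparison come from the same libraries, so this is a description across genes.

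**Figure D4:**
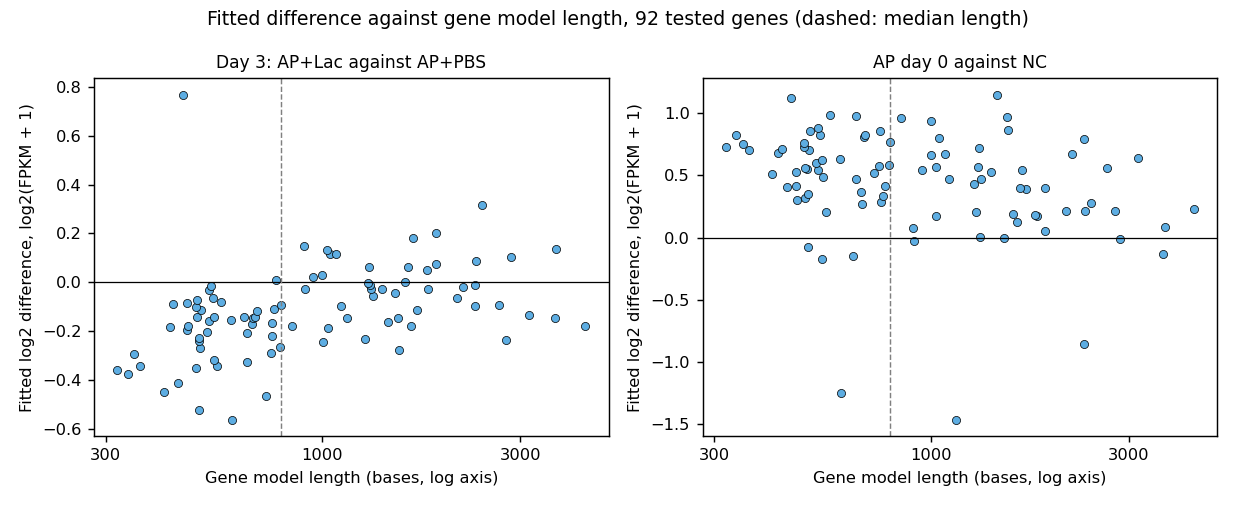
Fitted log2 difference of the 92 tested genes against gene model length on a log axis, for D3 AP+Lac against D3 AP+PBS (left) and D0 against NC (right); each point is a gene and the dashed line the median length. On the left 44 of the 46 shorter genes lie below 0, and on the right shorter genes lie higher (median 0.57 against 0.40).

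The effect of lactate differed between day 3 and day 1 for 1 of the 92 genes, where 4.76% of all tested genes were called higher and 5.94% lower. That gene was Cox7a1. At day 1 it measured 2.47 to 5.85 FPKM (median 4.52) with PBS and 2.84 to 4.31 FPKM (median 3.04) with lactate (-0.23, adjusted p = 0.486 in limma). At day 3 it measured 0.849, 1.35, 0.423 and 1.57 FPKM with PBS and 2.30, 2.81, 3.24 and 1.499 FPKM with lactate (0.77, adjusted p = 0.115). Only the highest PBS library and the lowest lactate library overlapped. The difference of the effects was 1.00 (SE 0.30, adjusted p = 0.0341 in limma), on 7 to 27 fragments in the day 3 PBS libraries, and it was not called with no filter, with median-ratio scaling, in the compared groups alone, with limma-voom, or without D1 AP+PBS replicate 1, 4 or 6, D1 AP+Lac replicate 3 or 4, D3 AP+PBS replicate 1 or 3, or D3 AP+Lac replicate 2 or 3. Over all single libraries left out, the adjusted p ran from 0.0085 to 0.076 in limma. Among the further lists Tfam (-0.67, adjusted p = 0.033), Mterf1a (-0.58, adjusted p = 0.014) and Sco1 (-1.05, adjusted p = 0.019) differed in the other direction.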

How the data were processed

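Total RNA (10 ng) went into each library, per the labels' protocols. The authors deposited their expression values as FPKM, for every gene in each of the 28 libraries, and the table names that unit. Programs listed in the submitters' processing notes are fastp and R 3.2.0. Which aligner, counting program, strand setting and genome build were used is not given in the sources used here. FPKM are relative to a library's mapped fragments, so abundant RNA of one cell type lowers all other values, and overlapping, antisense or near-identical genes cannot be told apart with certainty.

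Each library was placed in its group by its title. Whole fragments were recovered from the FPKM steps (100% of values whole at a tolerance of 0.0001), giving 33273303 to 41060490 per library. Of 55 pairs of libraries within groups, none agreed within sampling noise (lowest chi-square per degree of freedom 26.4). Tests used log2(FPKM + 1), which understates changes of low genes, for genes with at least 1 FPKM in at least 3 libraries (11960), in one limma 3.58.1 model (R 4.3.3) of 6 group means over 28 libraries with trend and robust variances. P-values are two-sided, adjusted by Benjamini-Hochberg over all genes, with a threshold of 0.05. The script was tested on simulated data.

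The genes and lists were chosen with earlier results of these data known. Named genes were the most abundant of each class, up to 4 called genes in each direction per comparison, and fixed isoform pairs and enzyme cores; 1 of them is not reported here. Outside the list they were up to 2 called genes of smallest p per list and comparison, with Cycs, Cyc1, Tfam, Nrf1, Ppargc1a and Ppargc1b. Other genes given with values, such as Uqcrb, Ndufc1, Yy1, Gabpa and those of the YY1 examples, were chosen after their values were seen. Alternatives were another pseudocount, filters, 2 scalings, covariates, limma-voom on the recovered fragments, a replicate block and leaving out each library. Those for the 13 mitochondrially encoded genes, and the one without 4 day 1 libraries, were added after seeing the data. Promoters came from RefSeq GRCm38.p6, matched by NCBI Gene ID, and motifs were searched on both strands.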

Additional observations from a re-analysis of the deposited data

Results flagged for a closer look

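Within groups of 4 to 6 libraries, 260 sets of values from 52 genes were examined for a library far from the others of its group, and 28 held one. Chance alone gives about 1 in 20 such sets, and the sets are not independent, since libraries are shared. D0 replicate 3 held 9 of the 28, and all 9 were low: Atp5g2 (98.8 FPKM), Atp5g3 (93.4), Cox4i1 (267), Cox8a (168.5), Ndufa2 (62.7), Ndufa3 (167), Ndufb6 (47.1), Sdhd (56.9) and Uqcrh (130.2). D3 AP+PBS replicate 2, the library with the highest acinar level, was high for ND1 (2253 FPKM), ND4 (764), COX2 (132) and COX3 (81.9). D3 AP+Lac replicate 1, with the lowest acinar level of its group, was low for Atp5j2 (136 FPKM) and Ndufa1 (43.6) and high for Ndufaf5 (3.43) and Sdhc (60.5).

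D1 AP+PBS replicate 5 was low for Atp5g2 (149 FPKM), COX3 (38.7) and ATP6 (24.2), and D1 AP+Lac replicate 6 was low for ND4 (244) and COX2 (47.4). D1 AP+Lac replicate 2 was high for Cox4i2 (0.705 FPKM) and Ndufaf8 (18.2), D0 replicate 1 for Cox4i2 (0.237) and Sdhc (85.1), and D3 AP+Lac replicate 4 for Cox4i1 (264) and Ndufaf1 (10.2). The effect of lactate on Cox7a1 differed between the days, by 1.00 on the log2(FPKM + 1) scale (adjusted p = 0.0341 in limma).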

How the results depend on the processing

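Over 94 values of named genes and comparisons, 1992 alternatives were run: 1690 kept direction and side of the threshold, 244 kept the direction and lost the call, 53 gained one and 5 changed direction. Those 5 were Sdha at D0 against NC (0.21 with median-ratio scaling, 0.26 with the cell cycle covariate), and at D1 AP+PBS against D0 Sdha (-0.26) and Uqcrfs1 (-0.073) with the cell cycle covariate and Sdhc (0.043) with the lymphocyte covariate. No gene called at D0 against NC, D1 AP+PBS against D0 or D3 AP+PBS against D1 AP+PBS was called the other way in any alternative. For D3 AP+PBS against D1 AP+PBS, 23 calls became 11 with no filter and 10 in the compared groups alone. For D3 AP+PBS against NC, 4 calls became 1 with no filter or median-ratio scaling, 2 with the 5 FPKM filter, quantile normalization, the compared groups alone or limma-voom, and 0 with the lymphocyte covariate. For lactate at day 3, quantile normalization and the lymphocyte covariate gave 1 call. For the difference of the lactate effects, 1 call became 0 with no filter, median-ratio scaling, the compared groups alone or limma-voom. Without the 4 day 1 libraries (chosen after seeing the data), day 1 lactate gave 6 calls and the difference of the effects 6. Over all tested genes that setting gave 1959 higher and 1467 lower for day 1 lactate. For the difference of the effects it gave 1590 higher and 1818 lower.

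For the 13 mitochondrially encoded genes, D0 against NC gave 0 calls with the acinar, 6 with the lymphocyte and 4 with the cell cycle covariate, and D1 AP+PBS against D0 gave 4 with the lymphocyte and 0 with the cell cycle covariate. Where none was called, D3 AP+PBS against D1 AP+PBS gave 2 with quantile normalization and 3 with the cell cycle covariate, D3 AP+PBS against NC 1 with the acinar and 1 with the lymphocyte covariate, lactate at day 3 gave 1 with the cell cycle covariate, and the difference of the lactate effects 1 with that covariate and 1 without the 4 libraries. The cause was not tested for these changes.

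Leaving out 1 library at a time gave 51 to 70 calls among the 92 genes for D0 against NC, 33 to 45 for D1 AP+PBS against D0, 8 to 27 for D3 AP+PBS against D1 AP+PBS, 0 to 5 for D3 AP+PBS against NC, 0 to 3 for lactate at day 1, 0 to 1 at day 3 and 0 to 4 for the difference of the effects. For the 13 mitochondrially encoded genes it gave 12 to 13, 13, 0, 0, 0, 0 and 0 to 1. Same-numbered libraries did not deviate together as a rule (59 pairs, r from -0.57 to 0.61, median -0.02, 20 over 0.1, 4 libraries closest to their own number). The labels do not say what the numbers mean, and with so wide a range this cannot exclude a pairing. With the replicate block the calls were 61, 37, 22, 2, 0, 1 and 1 in the same order. Genes under 1 FPKM, such as Cox4i2 with 0 to 25 fragments, are limited by depth.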
